A study of Sus scrofa with 23 samples.

Results

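Psilocybin was compared with saline in the prefrontal cortex of the 11 pigs that the labels place in batch 1, out of 23 animals in the series. The members were taken as the libraries numbered below 300 by the submitters. The labels do not say what the batches mark. Psilocybin was given to 6 of the animals, with 3 killed at 1 day (here psilocybin animals 1 to 3) and 3 at 1 week (psilocybin animals 4 to 6). Saline was given to 5, with 2 killed at 1 day (saline animals 1 and 2) and 3 at 1 week (saline animals 3 to 5). All were adolescent female Danish slaughter pigs of 20 kg that received 1 intravenous injection, of 0.08 mg/kg psilocybin or of saline, while awake, and were killed with pentobarbital. Batch 2 has 12 other animals, 3 in each combination of treatment and time. Poly-A selected RNA was sequenced, and each animal gave 1 library.

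Psilocybin is converted in the body to psilocin, a serotonin analogue that activates several serotonin receptors, of which the 5-HT2A receptor on cortical pyramidal neurons is the one tied to its psychedelic action. Activation of this receptor raises intracellular calcium and can induce immediate early genes and growth-related genes within hours. The animals compared here were sampled later than that early response.

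Counts assigned to genes ranged from 9623029 to 13567768 in the psilocybin libraries and from 11631460 to 16212439 in the saline libraries. The share of counts from the mitochondrial genome was 13.25% ± 1.47 after psilocybin (SD, n = 6) and 13.32% ± 2.09 after saline (SD, n = 5). The 16 tested excitatory neuron markers summed to between 6830 and 7710 CPM (counts scaled by library size, as edgeR's cpm function gives them) after psilocybin and between 6480 and 8320 CPM after saline. Markers of choroid plexus and ependyma summed to 23.2 to 43.5 CPM after psilocybin and 21.9 to 37.6 CPM after saline. Blood cell markers, mainly haemoglobin, were uneven, at 40.7 to 509 CPM after psilocybin and 68.1 to 199 CPM after saline. On the first principal component, which held 25.2% of the variance, saline animal 3 (1 week) scored 33.6 and psilocybin animal 1 (1 day) scored 29.0, while the other 9 lay between -24.6 and 11. In bulk tissue, fewer cells of a type and less RNA per cell cannot be told apart.

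No gene passed an adjusted p of 0.05 when the 6 psilocybin libraries were compared with the 5 saline libraries with time as a covariate. The share called was 0.0% of 15187 genes tested, and the smallest Benjamini-Hochberg adjusted p of edgeR's quasi-likelihood test was 0.999. DESeq2 and limma-voom also called 0 genes. At an unadjusted p under 0.05 edgeR counted 434 genes (2.86%), of which 204 were higher and 230 lower after psilocybin. DESeq2 put 2.75% there and limma-voom 2.77%. A uniform distribution of p would put 759 genes there. The median standard error of a log2 fold change was 0.13. For 14074 genes (92.7%) the 95% confidence interval lay within a 2-fold difference in either direction, and for 11509 genes (75.8%) within a 1.5-fold one. Of all genes tested 51 (0.336%) had no overlap in CPM between the 6 psilocybin and the 5 saline libraries, 16 of them higher (0.105%) and 35 lower (0.23%) after psilocybin.

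The 10 genes with the smallest p among those higher after psilocybin had unadjusted p between 0.00114 and 0.00421, and an adjusted p of 0.999 each in edgeR. RELN encodes reelin, a large matrix glycoprotein that cortical interneurons secrete and that acts on synapses. It stood at 17.0, 15.9 and 20.8 CPM at 1 day and 17.5, 35.8 and 27.2 CPM at 1 week after psilocybin, against 10.1 and 16.4 CPM at 1 day and 12.3, 17.8 and 14.8 CPM at 1 week after saline. Psilocybin animals 5 and 6 were above every other library, psilocybin animal 3 was above all of saline, and the remaining psilocybin values lay within the saline range. The log2 fold change was 0.66 ± 0.19 (SE). FBLN2, which encodes the matrix protein fibulin-2, had 22.9, 24.2, 18.4, 17.1, 18.7 and 16.4 CPM after psilocybin (1 day, then 1 week) and 16.8, 20.7, 12.1, 10.4 and 9.10 CPM after saline. The saline animals of 1 week were the lowest 3, and the saline animals of 1 day lay within the psilocybin range. LAMC1, a laminin chain of basement membranes, ranged from 33.2 to 40.5 CPM after psilocybin and from 28.4 to 33.1 CPM after saline, with no overlap and a log2 fold change of 0.29 ± 0.09 (SE).

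GALNT10, an enzyme that starts O-linked glycan chains, also had no overlap. It was at 37.3, 43.5, 38.1, 39.0, 43.3 and 45.0 CPM after psilocybin and at 25.9, 35.7, 37.0, 33.8 and 29.1 CPM after saline, a log2 fold change of 0.35 ± 0.10 (SE). The other 2 without overlap were expressed near the limit of detection. OC90, which encodes the otoconin of the inner ear, had 0.681 to 1.99 CPM after psilocybin and 0 to 0.601 CPM after saline. HASPIN, a kinase that marks histone H3 in mitosis, had 0.599 to 1.29 CPM after psilocybin and 0.0859 to 0.542 CPM after saline. Their log2 fold changes of 2.15 and 1.76 rest on a few reads per library. Only psilocybin libraries reached the minimum of the expression filter for these genes. Their direction and lack of overlap are therefore partly set by the filter. HASPIN lies inside another gene on the opposite strand, and the counts ignore strand. The remaining 4 higher genes included MMD2 (log2 fold change 0.38) and the RAC1-binding protein gene GARRE1 (0.40). The others were TBC1D2B, a member of the family of Rab GTPase-activating proteins (0.41), and MYO1C, a class I myosin (0.49). In each of the 4 the groups overlapped. GARRE1 overlaps other genes on both strands, and TBC1D2B overlaps a gene on the opposite strand.

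Among genes lower after psilocybin, the 10 with the smallest p had unadjusted p between 0.000601 and 0.00539 and an adjusted p of 0.999 in edgeR. No overlap was seen in 6 of them (0.23% of all genes tested), which the choice by p favours. HNMT encodes histamine N-methyltransferase, the main enzyme that inactivates histamine in brain. It was at 14.5, 9.97, 13.2, 9, 11.8 and 12 CPM after psilocybin and at 16.9, 15.9, 16.4, 14.5 and 20.3 CPM after saline. The highest psilocybin value and the lowest saline value met at 14.5 CPM, and the log2 fold change was -0.53 ± 0.13 (SE). C12orf75 had the smallest p of the 20. Its values were 6.55, 7.12, 5.81, 7.86, 7.59 and 6.06 CPM after psilocybin and 14.3, 9.50, 13, 11 and 7.90 CPM after saline, a log2 fold change of -0.70 ± 0.16 (SE). The psilocybin values were close together, and those of saline ranged more widely. C11orf54 was at 5.72 to 7.56 CPM after psilocybin and 8.59 to 10.9 CPM after saline, a log2 fold change of -0.50 ± 0.12 (SE). It overlaps another gene on the same strand, so its counts can include reads of that gene.

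TERF1, which binds telomeric repeats as part of shelterin, was at 20.1 to 24.1 CPM after psilocybin and 25.7 to 29.4 CPM after saline, without overlap and with a log2 fold change of -0.28 ± 0.08 (SE). MED31, a subunit of Mediator, was at 8.72 to 10.9 CPM after psilocybin and 11.8 to 16.3 CPM after saline, and the top saline value was that of saline animal 3. TAF9, a subunit of the initiation complex TFIID, had a log2 fold change of -0.28 and overlapped between the groups. HPRT1, the purine salvage enzyme on the X chromosome, was at 102, 85.3, 106, 83.2, 95.7 and 84.3 CPM after psilocybin and 120, 111, 119, 101 and 114 CPM after saline. Its groups overlapped only through saline animal 4. KRT25, a hair follicle keratin (log2 fold change -0.54), SHISAL2B (-0.92) and TMC2, a channel gene of inner ear hair cells that was below 1.4 CPM throughout (-2.18), complete the 10. All 20 genes had the same sign at 1 day and at 1 week and in every fit that left out 1 animal, which the choice by p favours.

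**Figure D1:**
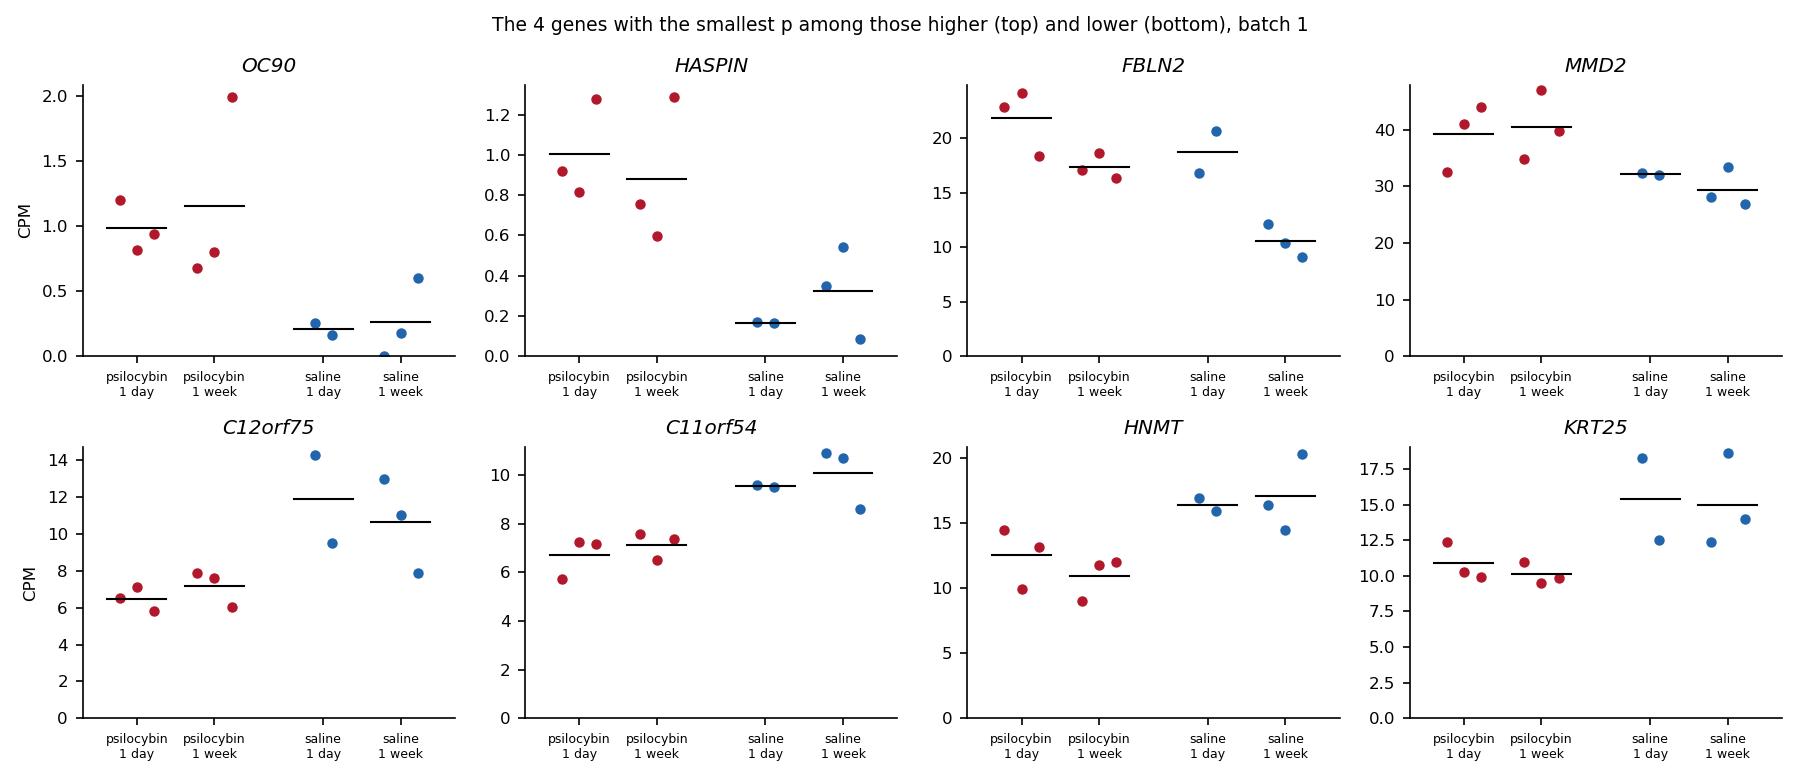
CPM per animal for the 4 genes with the smallest p in each direction in batch 1. Each point is 1 library, the short lines are the means of each treatment and time, and red is psilocybin, blue saline. In the lower row the psilocybin animals lie below the saline animals, as in C11orf54 (5.72 to 7.56 CPM against 8.59 to 10.9 CPM).

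On susScr11 the spans of their exons placed RELN on chromosome 9 from 103461885 to 103963684, FBLN2 on chromosome 13 from 70757274 to 70830432 and GALNT10 on chromosome 16 from 68723995 to 68961287. HNMT was on chromosome 15 from 13730458 to 13768645, C12orf75 on chromosome 5 from 14720120 to 14755815 and TERF1 on chromosome 4 from 62797000 to 62831464.

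The same contrast in the 12 animals of batch 2 is independent of the choice of these genes. Of the 10 higher genes 8 were tested there, 5 had the same sign and 0 had an unadjusted p under 0.05 (background 1.53%). Of the 10 lower genes 9 were tested, 8 had the same sign and 0 had an unadjusted p under 0.05. Over all genes 46.5% had a positive fold change in batch 2. FBLN2 had a log2 fold change of 0.49 in batch 1 and -0.25 in batch 2, where its mean was 18.5 ± 4.60 CPM in 6 psilocybin animals and 22.0 ± 5.60 CPM in 6 saline animals (± SD). In batch 2 RELN had 0.10, HNMT had -0.14 and C12orf75 had -0.30. SHISAL2B had -0.54 there, with an unadjusted p of 0.0705 in edgeR's fit.

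**Figure D2:**
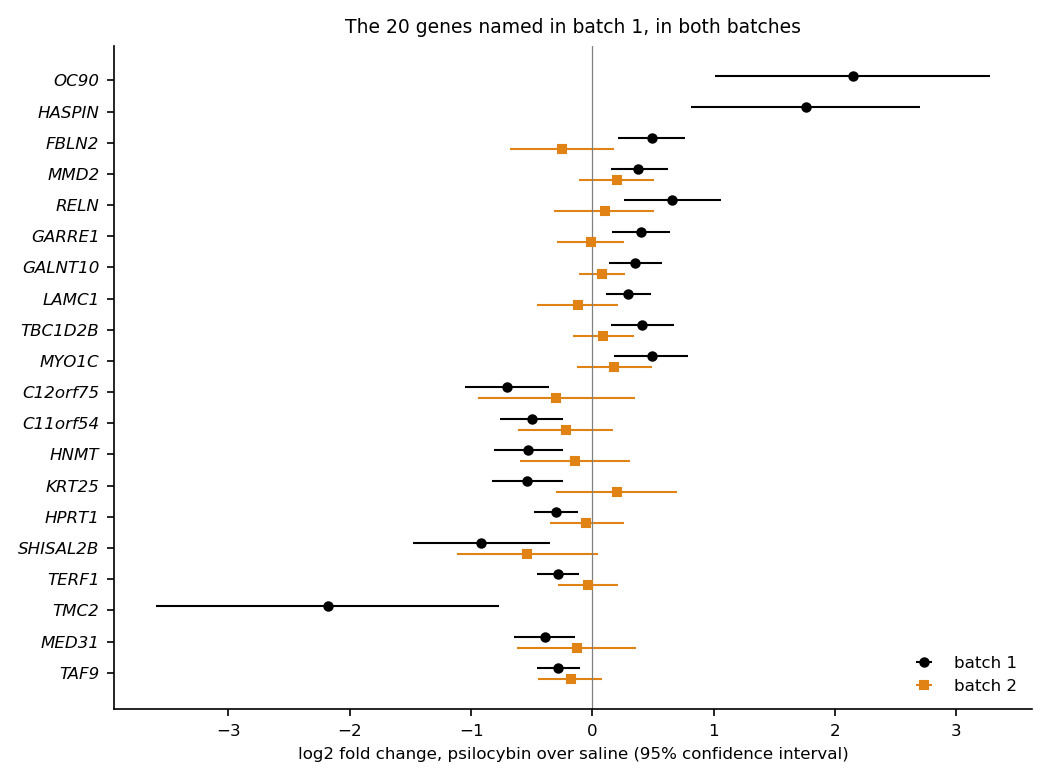
Log2 fold changes of psilocybin over saline with 95% confidence intervals for the 20 genes named in batch 1, from batch 1 (black circles) and batch 2 (orange squares); OC90, HASPIN and TMC2 were not tested in batch 2. Every batch 2 interval includes 0, as for HNMT, which had -0.53 in batch 1 and -0.14 in batch 2.

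No difference was called in the serotonin receptors and plasticity genes fixed for interest, which does not show that the 2 treatments were equal. Of 12 such genes 11 could be tested, HTR1A having no symbol match, and 0 had an unadjusted p under 0.05 in batch 1. HTR2A, the gene of the 5-HT2A receptor, was at 10.1, 13.2 and 15.7 CPM at 1 day and 17.2, 20.8 and 18.7 CPM at 1 week after psilocybin, against 12.8 and 15 CPM at 1 day and 21.0, 20.5 and 21.5 CPM at 1 week after saline. In both treatments the animals of 1 week were higher than those of 1 day. The log2 fold change between treatments was -0.13, with a 95% confidence interval from -0.37 to 0.12. HTR2C ranged from 8.77 to 11 CPM after psilocybin and from 8.82 to 12.2 CPM after saline, with an interval from -0.26 to 0.26. BDNF, a growth factor of synaptic plasticity, averaged 13.8 ± 2.71 and 13.8 ± 2.6 CPM after psilocybin and saline, and its interval ran from -0.33 to 0.31. Its receptor gene NTRK2 had a log2 fold change of 0.19, with an interval from -0.08 to 0.46. SV2A, a synaptic vesicle protein that serves as a marker of synapse density in imaging, averaged 366 ± 43.2 CPM after psilocybin and 348 ± 38.2 CPM after saline, with an interval from -0.15 to 0.28.

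Immediate early genes varied widely between the animals of each treatment. FOS was at 46.9, 22.0, 24.9, 27.4, 24.3 and 16.7 CPM after psilocybin and at 31.5, 32.7, 23.2, 29.2 and 7.99 CPM after saline. ARC spanned 115 to 377 CPM after psilocybin and 47.3 to 287 CPM after saline. Psilocybin animal 1 had the highest and saline animal 5 the lowest value of both genes. Of the 38 tested immediate early genes 28 had a positive log2 fold change (51.8% of all genes), the median was 0.08 and 0 had an unadjusted p under 0.05. When each animal was left out, the median ranged from 0.02 without saline animal 5 to 0.14 without saline animal 2. It was 0.03 without psilocybin animal 1 and 0.03 without psilocybin animal 4. At 1 day 15 of 38 were positive (52.2% of all genes), with a median of -0.04. At 1 week 31 of 38 were (51.0% of all genes), with a median of 0.16. In batch 2 14 of 38 were (46.5% of all genes), with a median of -0.07. FKBP5, a cochaperone induced by glucocorticoids, averaged 11.6 ± 1.69 CPM after psilocybin and 9.97 ± 1.36 CPM after saline, a log2 fold change of 0.22 with an interval from -0.07 to 0.50. In the glucocorticoid response list 13 of 15 genes were above 0 with a median of 0.11, and 0 reached an unadjusted p of 0.05. Leaving out saline animal 1 or psilocybin animal 6 gave a median of 0.06, and leaving out saline animal 5 gave 0.07. The largest median was 0.13, without psilocybin animal 2. In batch 2 the median of this list was 0.00, with 6 of 15 positive.

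Genes of the respiratory chain, the cytosolic ribosome and the proteasome were lower after psilocybin almost throughout, by small amounts. Of 55 nuclear respiratory chain genes 54 had a negative log2 fold change (48.2% of all genes), with a median of -0.12 against 0.01 over all genes. The same held for 44 of 45 ribosomal protein genes, with a median of -0.17, and for 26 of 27 proteasome subunit genes, with a median of -0.08. Unadjusted p was under 0.05 for 4 respiratory chain genes, 0 ribosomal genes and 1 proteasome gene, all lower (background 1.51% lower). UQCRQ, a subunit of complex III, had 69.5, 57.8, 61.0, 72.0, 60.1 and 58.6 CPM after psilocybin and 74.2, 70.3, 90.5, 66.7 and 69.4 CPM after saline. NDUFS4, a subunit of complex I, had 50.2, 55.2, 48.0, 57.5, 45.3 and 49.3 CPM after psilocybin and 56.6, 54.1, 75.2, 58.4 and 55.8 CPM after saline. Both genes had a log2 fold change of -0.23 and their largest value was that of saline animal 3.

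Saline animal 3 stood apart in these lists. Its score, the mean of a list's log2 CPM relative to the 11 libraries, was 0.55 for the ribosomal genes, 0.36 for the respiratory chain and 0.25 for the proteasome. The other saline animals lay between -0.07 and 0.00 for the ribosome, between -0.06 and 0.02 for the respiratory chain and between -0.04 and 0.03 for the proteasome. The psilocybin animals spanned -0.36 to 0.14, -0.16 to 0.12 and -0.10 to 0.08 for the same lists. Without saline animal 3, the medians were -0.03, -0.04 and -0.02, and 18 of 45, 15 of 55 and 11 of 27 genes were positive. In each list 0 genes then had an unadjusted p under 0.05 in edgeR (background 2.17%). The same count was 0 in each list without psilocybin animal 6 (background 1.86%). In batch 2 the same lists had 3 of 45, 8 of 55 and 8 of 27 genes positive (46.5% of all genes). The batch 2 medians were -0.07, -0.07 and -0.01. Among the 12 libraries of batch 2, its saline animal 3 (1 day) had the top score in each list, at 1.02, 0.69 and 0.38. The genes lower at an unadjusted p under 0.05 had a median exon length of 2580 bases, against 4414 for those higher and 3865 for all tested. The rank correlation of length with log2 fold change across genes was 0.16 with all libraries of batch 1. Without saline animal 3 of batch 1 it was 0.02, and in batch 2 it was 0.14. Genes are not independent replicates. Mitochondrially encoded genes, measured in the same libraries, had a median of 0.00 with 6 of 13 positive. That pooled value averages opposite signs at the 2 times. At 1 day 13 of 13 were positive with a median of 0.22. At 1 week 0 of 13 were, with a median of -0.16 that became -0.07 without psilocybin animal 6. The effect at 1 week minus the effect at 1 day had a median of -0.40. It was -0.10 without saline animal 2 of batch 1 and -0.78 without saline animal 1 of batch 1.

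**Figure D3:**
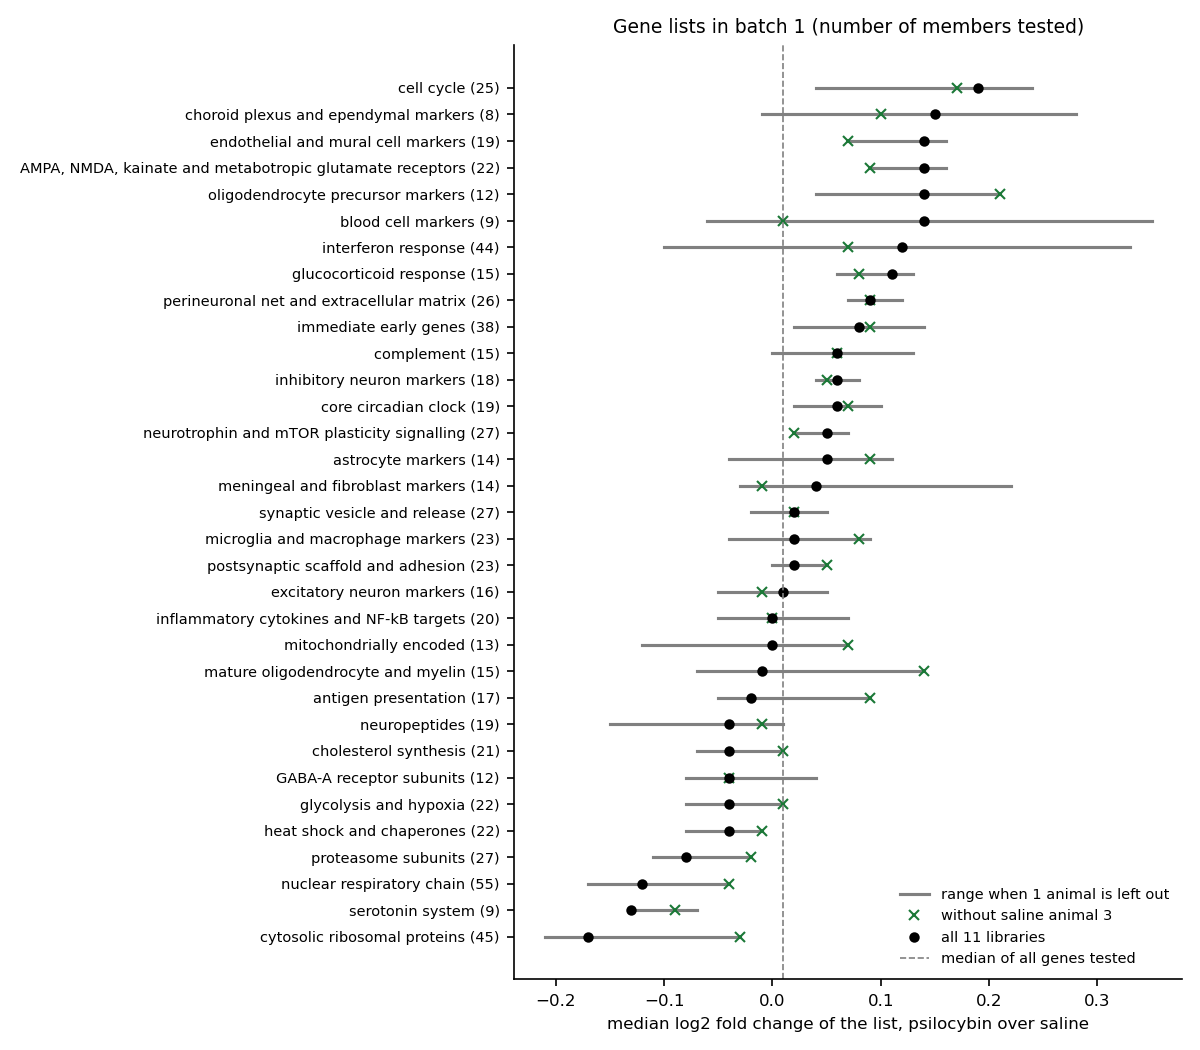
Median log2 fold change, psilocybin over saline in batch 1, of the 33 gene lists, with the number of members tested. Black points use all 11 libraries, grey lines span the values when each animal is left out, and green crosses leave out saline animal 3, where the ribosomal median is -0.03 in place of -0.17.

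Glutamate receptor genes went the other way. Of 22 AMPA, NMDA, kainate and metabotropic receptor genes 21 had a positive log2 fold change (51.8% of all genes), with a median of 0.14. At an unadjusted p under 0.05 was 1 gene, GRIK3, which encodes a kainate receptor subunit (background 1.34% higher). It had 2.95, 3.97, 4.96, 2.95, 6.59 and 5.17 CPM after psilocybin and 2.95, 3.77, 2.51, 3.43 and 1.89 CPM after saline. Its 3 highest values were those of psilocybin animals 3, 5 and 6, and the rest overlapped. The NMDA receptor genes GRIN2A, GRIN2D and GRIN3A had log2 fold changes of 0.49, 0.24 and 0.21. The AMPA receptor genes GRIA1, GRIA2, GRIA3 and GRIA4 had 0.01, 0.06, 0.04 and 0.07. GRIN2A and the AMPA receptor genes were named after their values were seen, and GRIN2D and GRIN3A by small p. These picked genes therefore do not compare NMDA with AMPA receptor genes as classes. Without saline animal 3 the median was 0.09 with 15 of 21 tested genes positive. In batch 2 the median was 0.01 and 11 of 22 were positive. GABA-A receptor subunits had 4 of 12 positive and a median of -0.04, and scaffold and adhesion genes of the postsynapse had 15 of 23 positive and a median of 0.02.

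**Figure D4:**
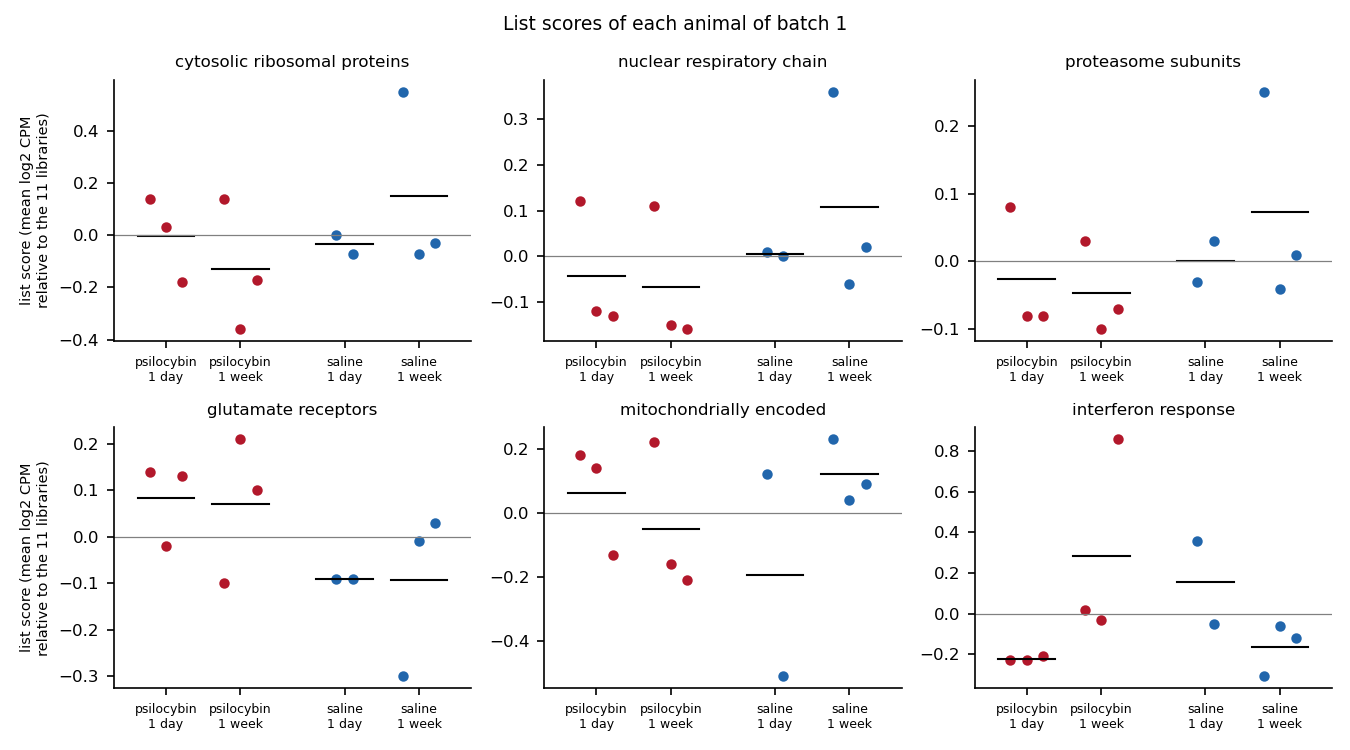
Score of each batch 1 animal for 6 gene lists, as the mean log2 CPM of the members relative to the mean of the 11 libraries. Each point is 1 animal and the short lines are means of each treatment and time; saline animal 3 has the top ribosomal score (0.55) and psilocybin animal 6 the top interferon score (0.86).

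Among transmitter genes, DDC, the enzyme that makes serotonin and dopamine from their precursors, was at 14.4, 9.47, 9.83, 10.9, 7.79 and 8.35 CPM after psilocybin and 7.58, 8.44, 7.52, 6.14 and 8.59 CPM after saline. Its log2 fold change was 0.38, and 4 of the psilocybin libraries were above all of saline. TAC1, the precursor of substance P, was at 3.84 to 7.84 CPM after psilocybin and 5.12 to 9.10 CPM after saline, a log2 fold change of -0.51. In batch 2 the log2 fold changes were 0.05 for DDC and -0.03 for TAC1. Perineuronal net and matrix genes, the list that holds RELN, had 18 of 26 positive and a median of 0.09, and the proteoglycan VCAN stood at 15.7 to 25.8 CPM after psilocybin and 13.2 to 17.1 CPM after saline. Endothelial and mural cell markers had 13 of 19 positive and a median of 0.14, which became 0.07 when saline animal 3 was left out and 0.08 when psilocybin animal 4 was. Their summed level was 570 to 646 CPM after psilocybin and 495 to 638 CPM after saline. The antigen presentation list had 8 of 17 positive and a median of -0.02. Its member with the smallest p was TAP2, a peptide transporter, at 20.4 to 26.0 CPM after psilocybin and 14.7 to 22.3 CPM after saline. TAP2 had a log2 fold change of 0.33 ± 0.10 (SE), with an unadjusted p of 0.00601 and an adjusted p of 0.999 in edgeR. In batch 2 its log2 fold change had the opposite sign, at -0.10.

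Cell type markers differed little between the treatments in batch 1. The median log2 fold change was 0.01 for excitatory neurons (9 of 16 positive), 0.06 for inhibitory neurons (12 of 18), 0.05 for astrocytes (9 of 14), 0.02 for microglia (13 of 23) and -0.01 for myelin (7 of 15). When each animal was left out, these medians stayed between -0.07 and 0.14, and each except that of inhibitory neurons changed sign. Oligodendrocyte precursor markers had 9 of 12 positive and a median of 0.14, which was 0.04 with 7 of 12 positive without saline animal 1, 0.07 without saline animal 4 and 0.08 without psilocybin animal 2. Myelin markers summed to 7010 to 13300 CPM after psilocybin and 5430 to 14300 CPM after saline, so the animals of 1 treatment differed by more than the treatments did. Without saline animal 3 the myelin list had 14 of 15 positive and a median of 0.14. In batch 2 it had 0 of 15 positive and a median of -0.27. The cell cycle list had 17 of 25 positive and a median of 0.19. That median was 0.04 without psilocybin animal 4, 0.11 without psilocybin animal 6 and 0.24 without saline animal 1. CENPE, a motor protein of the mitotic spindle with a log2 fold change of 1.49, had 8.55 CPM in psilocybin animal 6, 0.83 to 1.74 CPM in the other psilocybin animals and 0.432 to 1.02 CPM after saline.

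Interferon response genes are induced together by type I and type II interferons and encode antiviral proteins. With both times pooled, 34 of 44 had a positive log2 fold change, with a median of 0.12, and 1 had an unadjusted p under 0.05 (background 2.86%). The 2 times had opposite signs. At 1 day 4 of 44 were positive (52.2% of all genes) and the median was -0.33. At 1 week 42 of 44 were positive (51.0% of all genes) and the median was 0.52. The effect at 1 week minus the effect at 1 day was positive for 44 of 44 (49.0% of all genes), with a median of 0.88. In that difference 16 of the 44 had an unadjusted p under 0.05 (background 1.96%), and 0 genes of the table passed an adjusted p of 0.05 in edgeR, with 298 under an unadjusted 0.05 and 239 in DESeq2, which also called 0.

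CXCL10, a chemokine that attracts T cells, had the smallest p at 1 day and in the difference between times. It was at 1.11, 1.02 and 1.79 CPM at 1 day and 2.87, 3.79 and 4.47 CPM at 1 week after psilocybin, against 4.04 and 4.51 CPM at 1 day and 2.68, 2.77 and 3.18 CPM at 1 week after saline. All 3 psilocybin animals of 1 day were below every other library. The log2 fold change was -1.69 ± 0.31 (SE) at 1 day and 0.36 at 1 week. The unadjusted p at 1 day was 1.00e-04 and the adjusted p was 1.0 in edgeR. GBP1, an interferon-induced GTPase with close copies in the genome, had 12.6, 10.5, 17.8, 15, 25.2 and 32.6 CPM after psilocybin (1 day, then 1 week) and 21.3, 23.6, 15.6, 15.7 and 13.4 CPM after saline. RSAD2, which encodes viperin, was named after its values were seen. It had 2.67, 1.93, 1.88, 2.87, 2.6 and 22.9 CPM after psilocybin and 8.09, 3.93, 1.04, 2.77 and 2.06 CPM after saline. The animals that stood out were psilocybin animal 6 of 1 week and saline animal 1 of 1 day.

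**Figure D5:**
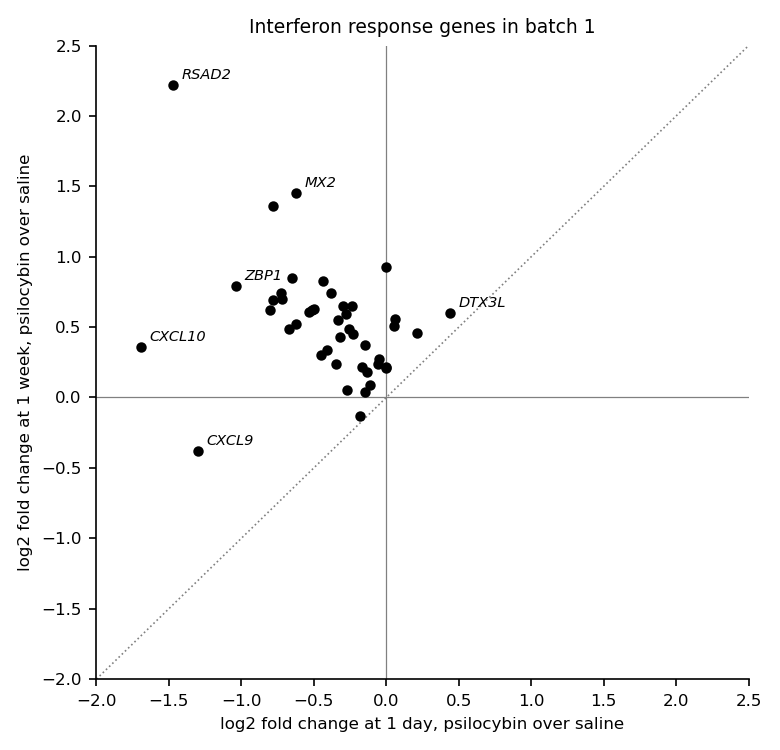
Log2 fold changes of the 44 interferon response genes, psilocybin over saline in batch 1, at 1 day (horizontal axis) and at 1 week (vertical axis); the dotted line marks equal values. Every gene lies above the line, 42 of 44 lie above 0 at 1 week and 4 of 44 lie right of 0 at 1 day.

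The interferon score was 0.86 in psilocybin animal 6 and 0.36 in saline animal 1, and between -0.31 and 0.02 in the other 9. Microglia markers also scored highest in psilocybin animal 6, at 0.26, but were at 0.01 in saline animal 1, and their summed level was 412 to 603 CPM after psilocybin and 442 to 538 CPM after saline. Without psilocybin animal 6 alone, the difference between the times had a median of 0.51, with 43 of 44 positive. Of the 44, 5 then had an unadjusted p under 0.05 in edgeR (background 1.74%), in place of 16. With psilocybin animal 6 and saline animal 1 both left out, 17 of 44 genes were positive at 1 day (median -0.03) and 35 of 44 at 1 week (median 0.15). The difference between the times was then positive for 34 of 44, with a median of 0.17. These values set the psilocybin animals of 1 day against saline animal 2 alone. For both times pooled, the median was -0.10 without psilocybin animal 6, with 10 of 44 positive, 0.33 without saline animal 1, with 39 positive, and 0.03 without both, with 25 positive. In batch 2 14 of 45 were positive and the median was -0.02. The difference between the batches had an unadjusted p under 0.05 for 0 of the 45.

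At 1 day, with 3 psilocybin and 2 saline animals, 0 genes passed an adjusted p of 0.05 in edgeR or DESeq2, with 180 (1.19%) in edgeR and 141 in DESeq2 under an unadjusted p of 0.05. Astrocyte markers were positive for 14 of 14 at 1 day (median 0.18), and for 6 of 14 with a median of -0.03 when saline animal 1 was left out. Mitochondrially encoded genes were positive for 13 of 13 at 1 day (median 0.22). Without saline animal 2, the lowest of the 11 with a score of -0.51, the median was -0.06 and 5 were positive, and without saline animal 1 it was 0.57. In each value that leaves out a saline animal, 1 saline animal stands for the group at 1 day.

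DVL2, a transducer of Wnt signals, is described because it was the 1 gene that passed at 1 day when psilocybin animal 1 was left out, with a log2 fold change of 1.34 and an adjusted p of 0.00725 in edgeR. With all animals it was 1.01, with an adjusted p of 1.0. At 1 day it had 34.9 CPM in psilocybin animal 1, 91.6 CPM in psilocybin animal 2 and 86.3 CPM in psilocybin animal 3 after psilocybin, against 37.7 and 32.6 CPM after saline. At 1 week it had 30.5 to 36.7 CPM after psilocybin and 30.5 to 33.7 CPM after saline. The values formed a high pair and a low set of 9 with nothing between. Scaled over all 23 libraries, batch 2 had 76.8 CPM in psilocybin animal 2 of that batch (1 day) and 67.2 CPM in its saline animal 5 (1 week), 49.9 CPM in its saline animal 3 (1 day) and 24.1 to 43.6 CPM in the other 9. The 9 tested genes within 50 kb on chromosome 12 did not share the pattern, such as ACADVL with 74.5 and 69.0 CPM in psilocybin animals 2 and 3 and 61.8 to 74.2 CPM in the rest. DVL2 overlaps a gene on the opposite strand, and it and ACADVL were named after their values were seen.

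At 1 week, with 3 animals in each group, 0 genes passed an adjusted p of 0.05 in edgeR or DESeq2, with 543 (3.58%) in edgeR and 498 in DESeq2 under an unadjusted p of 0.05. SLC5A6, the transporter of biotin and pantothenate, had 42.6, 39.9 and 39.0 CPM after psilocybin and 19.5, 26.7 and 30.7 CPM after saline at 1 week. At 1 day it had 34.5, 31.6 and 35.1 CPM after psilocybin and 35.8 and 35.8 CPM after saline. PLA2G7, the phospholipase that inactivates platelet-activating factor, had 4.69, 8.89 and 6.86 CPM after psilocybin and 12.5, 11.6 and 13.1 CPM after saline at 1 week. At 1 day it was at 7.73 to 8.54 CPM after psilocybin and 7.83 and 8.85 CPM after saline. Ribosomal protein genes were positive for 1 of 45 at 1 week, with a median of -0.31 that became -0.07 without saline animal 3, and were positive for 31 of 45 at 1 day.

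The log2 fold changes of the 2 batches had a weak correlation across genes. Over the 14923 genes tested in both, Pearson's r was 0.27 and Spearman's rho 0.25, and 60.3% had the same sign. Of the genes with an unadjusted p under 0.05 in batch 1, 305 (72.1%) had the same sign in batch 2, and 9 also had an unadjusted p under 0.05 there, 7 of them with the same sign (background 1.51% of the genes tested in both). Pearson's r was 0.22 without saline animal 3 of batch 1, 0.22 without psilocybin animal 6 and 0.21 without saline animal 1. When saline animal 3 of batch 2 (1 day) was left out, r was 0.09 and rho -0.08, 45.1% of genes had the same sign, and of the genes under 0.05 in batch 1 148 (34.8%) did. With saline animal 3 of batch 1 left out too, r was 0.15, rho 0.03, and 7468 of 14931 genes had the same sign. Genes are not independent replicates, and these values describe the libraries at hand.

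No gene differed between the batches in its response at an adjusted p of 0.05 in edgeR (151 at an unadjusted p under 0.05, 1.0% of 15049). Among those with the smallest p was ZZZ3, a subunit of a histone acetyltransferase complex, at 15.2 ± 1.01 CPM after psilocybin (SD, n = 6) and 18.2 ± 1.01 CPM after saline (SD, n = 5) in batch 1. In batch 2 it was at 19.8 ± 1.67 CPM after psilocybin and 18.1 ± 1.07 CPM after saline. TAGAP, a GTPase-activating protein of T cells, was at 13 ± 2.76 and 9.85 ± 1.49 CPM after psilocybin and saline in batch 1 and at 7.85 ± 1.58 and 9.72 ± 1.66 CPM in batch 2. TBXA2R, the thromboxane receptor, had a log2 fold change of 0.43 in batch 1 and -0.50 in batch 2, and the difference was 0.93 ± 0.26 (SE) with an adjusted p of 1.0 in edgeR. The genes with the smallest p in batch 2, RAB19, ZNF786 and SOD3, had log2 fold changes of 0.38, 0.18 and -0.01 in batch 1 and 0.77, 0.55 and -0.72 in batch 2.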

How the data were processed

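The authors deposited expected counts of 25880 Ensembl genes in 23 libraries. The submitters' processing notes name fastp 0.20.0 for trimming, STAR 2.6c for alignment, build susScr11 and featureCounts 1.5.1. Counting, per the file headers, ignored strand and gave reads shared between genes to each in fractions, so overlapping genes can borrow reads: 47 of 134 named genes overlap another. Counts were rounded to whole numbers, which moved library totals by at most 0.0013%. A symbol was found for 14857 genes.

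Genes passing edgeR's filterByExpr (minimum count 10, minimum total 15) were scaled by TMM, and edgeR 4.0.16 fitted a robust quasi-likelihood model (two-sided F tests) to the 11 libraries of batch 1, with terms for time and treatment. Effects at each time and their difference came from a model of the 4 groups, and the difference between batches from 1 model of 23 libraries. Batch 2 was fitted alone. CPM are scaled by TMM within batch 1 and, where said, over 23 libraries. The batch 2 means and SDs in CPM are scaled within batch 2, so they are not on the scale of batch 1. List scores use log2 CPM with a prior count of 2. The labels call the libraries separate animals, and no pair agreed within sampling noise. Named were the 10 genes with a symbol and the smallest p per direction, 3 in each other comparison, 12 genes of interest and 3 members of each list; 1 of these genes is not reported here. The members, the 33 lists and the genes of interest were chosen with earlier results of these data known. The fits were tested on simulated data. Alternatives were RLE size factors, other filters, DESeq2 1.42.0, limma-voom 3.58.1, a non-robust fit, 1 surrogate variable (sva 3.50.0), other time terms, all 23 libraries, and leaving out each animal.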

Additional observations from a re-analysis of the deposited data

Results flagged for a closer look

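Each value here stood apart from its own treatment group in batch 1, by the gap to the nearest other animal relative to the whole range. There were 24 such values in 338 groups examined, and chance gives about 1 in 20. Saline animal 3 was the highest of its group in RPS3A (377 CPM, next 267), RPS15A (182, next 127), RPS27A (148, next 94.3), NDUFS4 (75.2, next 58.4), PSMA1 (49.7, next 38.3) and MED31 (16.3, next 12.9). It was also highest in the list scores of the ribosome (0.55, next 0.00), the respiratory chain (0.36, next 0.02) and the proteasome (0.25, next 0.03). Psilocybin animal 6 was highest in CENPE (8.55 CPM, next 1.74), NCAPH (2.48, next 1.20), the interferon score (0.86, next 0.02) and the microglia score (0.26, next 0.00).

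Psilocybin animal 1 was highest in FOS (46.9 CPM, next 27.4), MAOB (103, next 79.0), CCN1 (14.1, next 8.70) and the heat shock score (0.14, next -0.04). Saline animal 2 was highest in BCL11B (3.52 CPM, next 1.72) and in the excitatory neuron score (0.19, next -0.02), and lowest in the mitochondrially encoded score (-0.51, next 0.04). Psilocybin animal 2 was lowest in FBLN1 (10.8 CPM, next 16.0). Psilocybin animal 5 was highest in the synaptic vesicle score (0.22, next 0.01), saline animal 4 in the meningeal score (0.70, next -0.10), and saline animal 5 was lowest in the score of the genes of interest (-0.54, next -0.04).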

How the results depend on the processing

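The count of genes past an adjusted p of 0.05 was 0 in every comparison under every alternative that kept all animals. When each animal was left out it ranged from 0 to 1 for psilocybin against saline in batch 1 and from 0 to 1 at 1 day, and was 0 in the others. The gene of the pooled comparison, without saline animal 1, was ENSSSCG00000039102 on an unplaced contig. It had 7.54 CPM in saline animal 2 and 0 to 1.08 CPM in the other 10, and its adjusted p was 0.0276. The count at an unadjusted p under 0.05 in the pooled comparison was 281 without psilocybin animal 6 and 665 without psilocybin animal 1, against 434. No paired analysis was possible because animal numbers are not shared between groups.

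No gene named passed the test with all animals, and the cause of the sign changes was not tested. With 1 surrogate variable the log2 fold change was -0.11 for GBP1, 0.00 for PDPN, 0.04 for SOD3, 0.05 for BDNF and -0.12 for GABRA2 (0.06, -0.02, -0.01, -0.01 and 0.23 otherwise). As an average of both times it was -0.01 for GBP1, 0.05 for PDPN and 0.00 for HTR2C, and with no time term 0.00 for BDNF. Without psilocybin animal 6 and saline animal 1, an alternative chosen after seeing the data, it was -0.07 for GBP1, 0.17 for BDNF and -0.06 for ARC. Leaving out each animal gave -0.15 to 0.23 for GBP1, -0.17 to 0.13 for PDPN, -0.13 to 0.21 for SOD3, -0.05 to 0.07 for HTR2C, -0.13 to 0.11 for BDNF and -0.12 to 0.24 for FOS. It gave -0.16 to 0.22 for ARC, -0.11 to 0.15 for NR4A1, -0.03 to 0.28 for DUSP1, -0.09 to 0.22 for ND5, -0.09 to 0.17 for ND4L and -0.07 to 0.14 for ATP8. The other 121 named genes kept their sign under every alternative, which the choice of most of them by p in these same libraries favours. The medians of 15 of the 33 lists kept their sign whichever animal was left out.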
